A study of Homo sapiens with 4 samples.

Results

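Metallothionein genes, their metal-sensing activator MTF1 and the SLC30 and SLC39 zinc transporters were followed in 2 cutaneous T cell lymphoma lines given IL-32γ. The members were chosen by name, as every probe set whose single gene symbol in the array's annotation is 1 of 35 listed genes. This gave 72 of 54675 probe sets, for 33 of 19775 named genes. MT1A and MT1B had no probe set with that single symbol in the annotation used here. The groups were MyLa with 5 ng/ml of IL-32γ, MyLa without it (control), HH with 5 ng/ml of IL-32γ and HH without it (control). All were cultured for 40 hours in 0.1% serum, with 1 array per group. MyLa is a line derived from mycosis fungoides, HH is another cutaneous T cell lymphoma line, and IL-32γ is an isoform of the cytokine interleukin-32. Nothing in the labels says that arrays came from separate cultures, so p-values measure the spread between these arrays only.

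Metallothioneins are small cysteine-rich proteins that bind zinc and copper, and their genes lie side by side on human chromosome 16. Free zinc in the cell activates MTF1, which binds metal response elements in the promoters of metallothionein genes and of SLC30A1, the zinc exporter of the cell membrane. SLC30 proteins (ZnT) move zinc out of the cytosol, across the cell membrane or into organelles, and SLC39 proteins (ZIP) move it into the cytosol. In T cells zinc entering through ZIP transporters takes part in signalling after activation.

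Each array held 23433 to 23686 probe sets with a log2 value of 5 or more, the level taken here as measured. Each marker was read by its probe set with the highest mean. Of 11 T cell markers with a probe set, 7 were measured in MyLa and 10 in HH. CD3E, CD5 and CD4 were below 5 on both MyLa arrays and at 10.72 or more in HH, and LCK was below 5 on every array. ZAP70 was the T cell marker past 1.5-fold with IL-32γ, in MyLa (0.62). No B cell, monocyte or endothelial marker with a probe set reached 5, and of the keratinocyte markers KRT10 did. Of the fibroblast markers, COL1A1 read 10.82 with IL-32γ and 11.30 without it in MyLa, and 5.66 with IL-32γ and 4.78 without it in HH. COL3A1 read 13.16 on both MyLa arrays and below 5 in HH, while COL1A2, DCN and LUM were below 5 throughout. The 5' probe set of ACTB, a sign of RNA quality, read 11.81 with IL-32γ and 10.12 without it in MyLa, and 13.58 with IL-32γ and 12.69 without it in HH, while the 3' probe set lay between 15.07 and 15.27.

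The promoters of 3 metallothionein genes whose probe sets were higher with IL-32γ in MyLa are shown because they hold several metal response element cores, and that of SLC30A1 because MTF1 also acts on it while its brightest probe set hardly differed. The windows run from 250 bases before to 50 bases after the transcription start and come from RefSeq on GRCh38.p14, which held windows for 26 of the members. Among the metallothioneins only MT1B and the 3 shown had a window, so MT1E, MT1F and MT1G had none. They are written 5' to 3' on the gene's strand. Capitals mark matches to the core of the metal response element, searched as TGCACNC and TGCGCNC on both strands. MT2A lies at chr16:56608334-56608633 (plus strand), MT1X at chr16:56682220-56682519 (plus strand), MT1H at chr16:56669564-56669863 (plus strand) and SLC30A1 at chr1:211579112-211579411 (minus strand).
MT2A: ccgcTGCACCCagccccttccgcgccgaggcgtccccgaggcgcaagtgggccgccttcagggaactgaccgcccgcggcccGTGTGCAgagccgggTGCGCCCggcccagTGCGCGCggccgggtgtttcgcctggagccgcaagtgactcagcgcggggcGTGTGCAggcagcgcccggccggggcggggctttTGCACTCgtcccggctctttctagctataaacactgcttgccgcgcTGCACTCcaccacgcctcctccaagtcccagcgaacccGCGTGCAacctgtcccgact
MT1X: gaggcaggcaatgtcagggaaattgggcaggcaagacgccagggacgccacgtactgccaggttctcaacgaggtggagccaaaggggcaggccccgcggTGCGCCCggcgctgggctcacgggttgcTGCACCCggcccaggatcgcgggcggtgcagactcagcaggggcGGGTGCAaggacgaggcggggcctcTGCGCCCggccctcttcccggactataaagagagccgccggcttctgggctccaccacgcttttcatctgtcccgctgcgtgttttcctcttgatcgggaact
MT1H: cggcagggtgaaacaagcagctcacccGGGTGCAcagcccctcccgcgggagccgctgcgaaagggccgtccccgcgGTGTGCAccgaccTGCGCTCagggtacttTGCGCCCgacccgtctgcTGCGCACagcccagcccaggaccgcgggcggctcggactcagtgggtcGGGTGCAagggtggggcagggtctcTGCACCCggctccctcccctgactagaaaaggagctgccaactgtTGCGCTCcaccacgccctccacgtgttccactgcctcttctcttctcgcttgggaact
SLC30A1: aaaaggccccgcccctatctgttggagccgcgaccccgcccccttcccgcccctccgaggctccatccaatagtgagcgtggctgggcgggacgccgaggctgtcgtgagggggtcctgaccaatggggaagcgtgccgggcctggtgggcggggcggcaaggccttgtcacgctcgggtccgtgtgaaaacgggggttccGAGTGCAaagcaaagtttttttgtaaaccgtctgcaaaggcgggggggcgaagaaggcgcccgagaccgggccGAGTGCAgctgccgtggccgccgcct

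MT2A and MT1H each held 8 matches, MT1X held 4 and SLC30A1 held 2, and no match overlapped another. Of 35116 promoter windows of the same length in the table, 29.6% held at least 1 match, 8.60% at least 2, 0.601% at least 4 and 0.0199% at least 8. The metallothionein windows were shown for their matches, so these shares give scale and test nothing. MT1B, with no probe set here, held 3. Counted from the start, the matches of MT2A began at positions from -246 to 31, and those of SLC30A1 at -49 and 25. MT2A and MT1X also held the TATA box letters TATAAA (11.5% of windows), and MT2A the AP-1 letters TGACTCA (4.95% of windows), both searched on both strands and neither overlapping a metal response element match. Among 31 windows of MTF1 and the transporters 13 held a match, with 3 at most. The window of MTF1 held none. These matches describe letters and not bound sites.

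**Figure D1:**
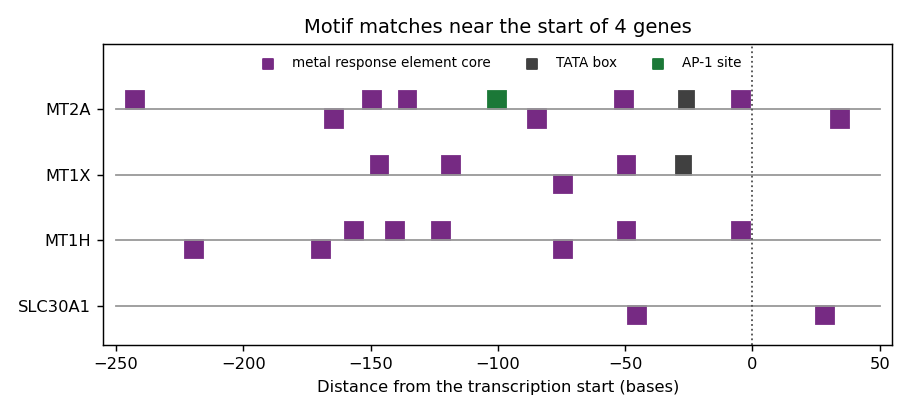
Matches to 3 motifs in the 300-base promoter windows of MT2A, MT1X, MT1H and SLC30A1, by distance from the transcription start in bases. Boxes above a line are on the gene's strand and boxes below it on the other. MT2A and MT1H each hold 8 metal response element cores, MT1X 4 and SLC30A1 2.

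The array reads metallothioneins almost wholly through shared probes. Of 12 metallothionein probe sets, 9 have names ending in _x_at, which marks probes that can also match other transcripts, and these 9 were the ones at 5 or more on any array. The remaining 3, the only probe sets of MT1M and MT3 and the second one of MT1G, end in _at and read below 5 throughout. The probe set named MT1X 204326_x_at was designed on a transcript that RefSeq now assigns to the pseudogene MT1L. Single metallothioneins are therefore uncertain, and the 9 probe sets are not separate measurements.

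In MyLa the measured metallothioneins were higher with IL-32γ, by 1.62-fold to 2.19-fold in the probe sets measured on both arrays. MT2A, the most widely expressed metallothionein, read 11.73 with IL-32γ and 10.60 without it in MyLa, a log2 difference of 1.13. MT1G read 9.59 with IL-32γ and 8.62 without it (0.97), and MT1H 10.15 with IL-32γ and 9.25 without it (0.90). MT1X read 9.66 with IL-32γ and 8.87 without it by 208581_x_at (0.79). The MT1 isoforms named so far thus differed by 0.79 to 0.97. By 204326_x_at MT1X read 9.30 with IL-32γ and 8.61 without it (0.69), and MT1E read 7.20 with IL-32γ and 6.49 without it by 216336_x_at (0.70). MT1F went above the level of 5 only with IL-32γ, at 6.0 with it and 4.50 without it by 217165_x_at, so its difference is at least 2.00-fold. The other probe sets of MT1E (4.99 with IL-32γ and 2.53 without it by 212859_x_at) and MT1F (3.80 with IL-32γ and 3.57 without it by 213629_x_at) stayed below 5 on both MyLa arrays, where values carry no order, and gave no difference. Arrays of whole cultures cannot tell fewer cells with a transcript from less RNA per cell.

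Of the 12 probe sets 7 were measured in MyLa, and these 7 were higher by 1.5-fold or more. One of them, that of MT1F, passed only through the IL-32γ array. The 6 measured on both arrays were also 6 of 6 higher, with a median of 0.84. Over all probe sets measured in MyLa 11.0% passed 1.5-fold upward and 9.14% downward, and the median difference was -0.05. Among the 2118 measured probe sets ending in _x_at, 12.2% were higher and the median was 0.02. A single array per condition allows no test, and the 5' ACTB probe set differed by 1.69 between the same arrays and that of GAPDH by 0.68. The part of RNA quality in the result was not tested. Without the probe sets ending in _s_at or _x_at no metallothionein remained measured.

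In HH the same probe sets stood high and hardly differed with IL-32γ. MT2A read 13.69 with IL-32γ and 13.64 without it (0.06), and MT1G 12.35 with IL-32γ and 12.28 without it (0.07). MT1H read 12.43 with IL-32γ and 12.37 without it (0.07). The largest differences were those of MT1X, at 12.59 with IL-32γ and 12.27 without it by 208581_x_at (0.32), and at 12.23 with IL-32γ and 12.02 without it by 204326_x_at (0.21). MT1E read 12.63 with IL-32γ and 12.49 without it by 212859_x_at, and 10.83 with IL-32γ and 10.72 without it by 216336_x_at. MT1F read 12.25 with IL-32γ and 12.09 without it by 213629_x_at, and 12.65 with IL-32γ and 12.57 without it by 217165_x_at. All 9 measured probe sets were on the positive side, between 0.06 and 0.32, and 0 of 9 reached 1.5-fold in either direction, which 5.43% of all probe sets measured in HH did upward and 4.02% downward. The median of the 9 was 0.11, against -0.03 over all measured probe sets, of which 44.5% were positive. The response in MyLa minus that in HH was 1.08 for MT2A, 0.90 for MT1G, 0.83 for MT1H and 0.47 for MT1X by 208581_x_at. With 1 pair of arrays per line that difference was not tested.

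**Figure D2:**
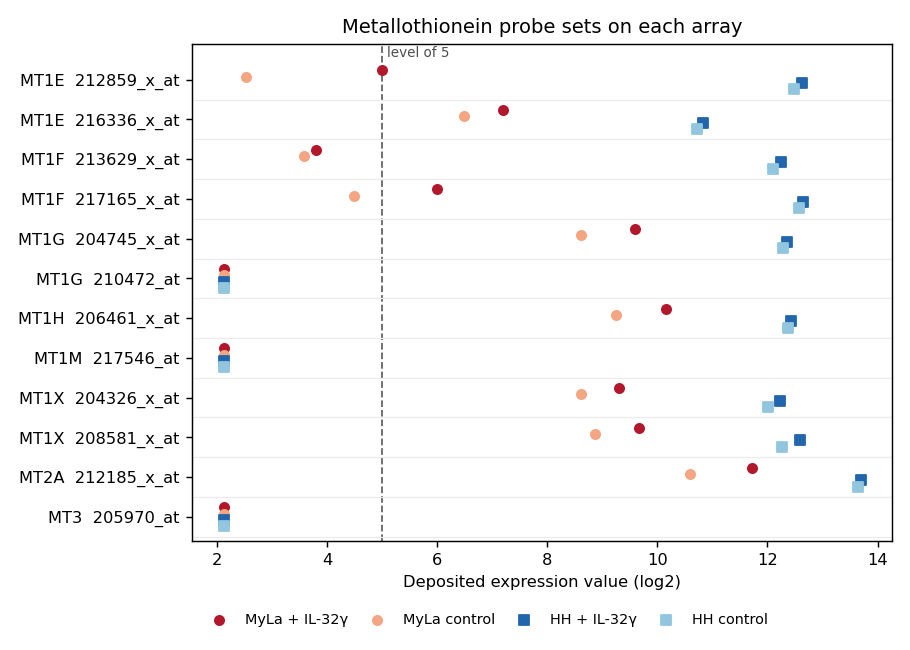
Deposited log2 expression values of the 12 metallothionein probe sets on each of the 4 arrays, with 1 point per array and a dashed line at the level of 5. MyLa points lie left of HH points in 9 probe sets, MyLa with IL-32γ lies right of the MyLa control in the 7 measured in MyLa, and 3 probe sets read near 2.13 on every array.

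MTF1, the zinc sensor that drives metallothionein genes, was measured by 3 probe sets on every array and none reached 1.5-fold. Probe set 227150_at read 10.61 with IL-32γ and 10.50 without it in MyLa, and 10.17 with IL-32γ and 10.01 without it in HH. Probe set 205323_s_at read 10.53 with IL-32γ and 10.18 without it in MyLa, and 9.64 with IL-32γ and 9.54 without it in HH. Probe set 205322_s_at read 9.73 with IL-32γ and 9.65 without it in MyLa, and 8.82 with IL-32γ and 8.77 without it in HH. All 6 differences were positive, from 0.08 to 0.35 in MyLa and from 0.06 to 0.16 in HH, beside 44.1% and 44.5% of all measured probe sets. They come from 3 probe sets of 1 gene on the same arrays and are not separate measurements.

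SLC30A1, which exports zinc from the cell, did not share the difference of the metallothioneins. Its brightest probe set, 212907_at, read 12.42 with IL-32γ and 12.39 without it in MyLa, and 11.70 with IL-32γ and 11.74 without it in HH. The second, 228181_at, read 9.43 with IL-32γ and 10.04 without it in MyLa (-0.60), just past 1.5-fold on the lower side, and 8.75 with IL-32γ and 8.74 without it in HH. The 2 probe sets thus disagreed in MyLa.

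Among the transporters with a probe set past 1.5-fold, 1 probe set per gene passed it and the other measured ones of that gene stayed within it. Of 35 measured probe sets of MTF1 and the transporters in MyLa, 3 were higher (8.57%) and 2 lower (5.71%), against 11.0% and 9.14% over all probe sets, and their median difference was 0.02. In HH 1 of 35 was higher (2.86%) and 0 lower, against 5.43% and 4.02% over all probe sets. SLC30A5, which loads zinc into the secretory pathway, had 5 measured probe sets. By 1555334_s_at it read 10.41 with IL-32γ and 9.42 without it in MyLa (0.99), and 9.46 with IL-32γ and 9.17 without it in HH (0.29). The other 4 lay between -0.22 and 0.10 in MyLa. SLC39A3, an importer of the cell membrane, read 6.72 with IL-32γ and 5.04 without it in MyLa by 223917_s_at (1.68), and 6.62 with IL-32γ and 6.72 without it in HH. Its MyLa difference rests on a control value close to the level of 5, and its second probe set, 229677_at, lay between 4.59 and 5.20 on the 4 arrays.

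SLC39A8 (ZIP8), an importer of zinc, manganese and other metals that is induced in activated T cells, was the member higher by 1.5-fold or more in both lines. Its probe set 228945_s_at read 8.20 with IL-32γ and 7.25 without it in MyLa (0.96), and 10.02 with IL-32γ and 9.18 without it in HH (0.85). In 216504_s_at SLC39A8 read 10.73 with IL-32γ and 10.21 without it in MyLa (0.52), and 12.66 with IL-32γ and 12.31 without it in HH (0.36). In 219869_s_at SLC39A8 read 10.70 with IL-32γ and 10.39 without it in MyLa (0.32), and 12.03 with IL-32γ and 11.66 without it in HH (0.37). These 3 probe sets were higher with IL-32γ in each line. The brightest, 209267_s_at, read 13.22 with IL-32γ and 13.26 without it in MyLa, and 14.06 with IL-32γ and 14.05 without it in HH, and 2 further probe sets read below 5 on every array. The probe sets of SLC39A8 thus gave differences from -0.04 to 0.96 in MyLa and from 0.01 to 0.85 in HH. The 5' ACTB probe set was also higher with IL-32γ in both lines, by 1.69 in MyLa and 0.89 in HH. The part of RNA quality in the SLC39A8 differences was not tested.

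SLC39A13 (ZIP13), which moves zinc out of the secretory pathway, had the lowest difference of the members in MyLa. Its probe set 1552295_a_at read 7.33 with IL-32γ and 8.60 without it in MyLa (-1.27), and 4.20 with IL-32γ and 5.27 without it in HH, where the difference is bounded by the level of 5. By 225277_at it read 8.41 with IL-32γ and 8.48 without it in MyLa (-0.07), and 7.28 with IL-32γ and 7.74 without it in HH (-0.46). All 4 differences were negative, and 1 of them passed 1.5-fold.

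The other transporters stayed within 1.5-fold in both lines. SLC39A6 (ZIP6), an importer with 4 measured probe sets, ranged from -0.42 to 0.31 in MyLa and from -0.03 to 0.56 in HH, and SLC39A10, its close relative, was at 0.43 in MyLa and 0.30 in HH. SLC39A4, an importer of the cell membrane, was at 0.48 in MyLa and -0.21 in HH, and SLC39A7, which releases zinc from the endoplasmic reticulum, at 0.28 in MyLa and -0.20 in HH. The remaining measured ones, SLC30A6, SLC30A7, SLC30A9, SLC39A1, SLC39A9, SLC39A11 and SLC39A14, lay between -0.29 and 0.24. Another 8 transporter genes, SLC30A2, SLC30A3, SLC30A4, SLC30A8, SLC30A10, SLC39A2, SLC39A5 and SLC39A12, read below 5 in every probe set on every array. Of the 72 member probe sets 44 reached 5 on at least 1 array, and no member was higher by 1.5-fold in one line and lower by 1.5-fold in the other.

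**Figure D3:**
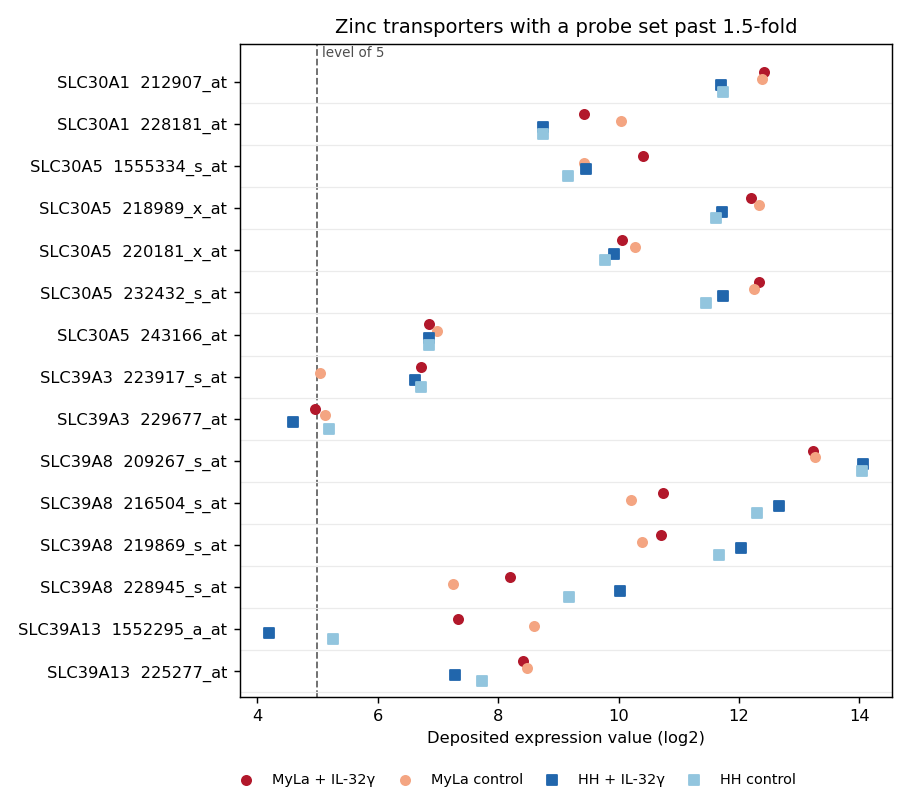
Deposited log2 expression values on each of the 4 arrays for the measured probe sets of the zinc transporters with a probe set past 1.5-fold in a line, with 1 point per array. SLC39A8 228945_s_at is higher with IL-32γ in both lines, whereas SLC30A5 and SLC39A3 each have 1 probe set past 1.5-fold in MyLa and others within it.

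**Figure D4:**
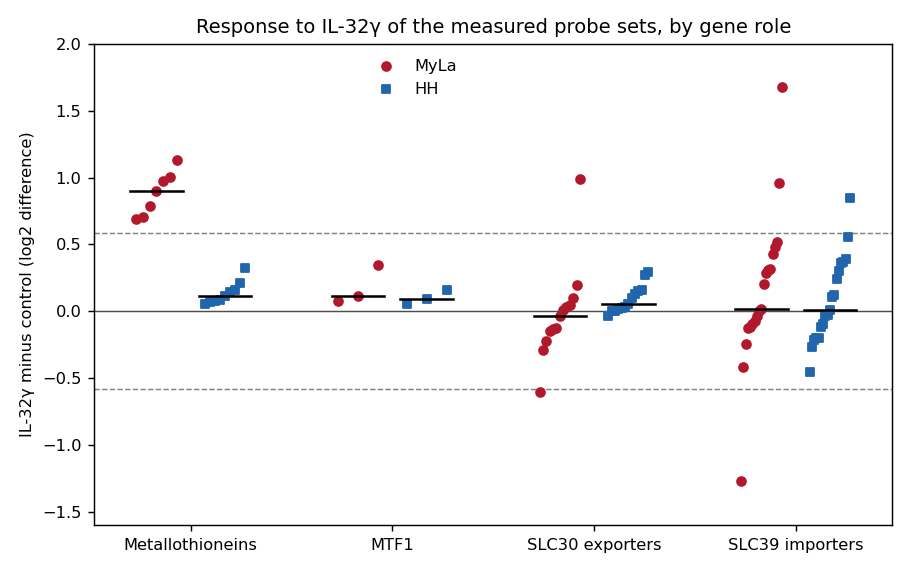
Log2 difference between IL-32γ and control for each measured probe set, by gene role, with MyLa (circles) left of HH (squares), black bars at the medians and dashed lines at 1.5-fold. The 7 metallothionein points of MyLa lie between 0.69 and 1.13, and the 9 of HH between 0.06 and 0.32.

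Taking both lines together, with each line's pair of arrays as a block, limma called none of the 44 tested members. Over 25273 probe sets it called 0 (0%) at an adjusted p under 0.05, and the fit leaves 1 residual degree of freedom. An unadjusted p under 0.05 in limma was reached upward by 1224 probe sets (4.84%) and downward by 1337 (5.29%). Among the 44 members 3 reached it upward and 0 downward, counts too small to set the members apart from those shares. These 3 were SLC39A8 by 228945_s_at (log2 difference 0.90 ± 0.13 SE, adjusted p = 0.484 in limma), SLC39A8 by 216504_s_at (0.44 ± 0.13, adjusted p = 0.486) and MT1X by 208581_x_at (0.56 ± 0.18, adjusted p = 0.491). MT2A averaged 0.59 ± 0.32 (SE) across the lines (adjusted p = 0.599 in limma), the spread being that between 1.13 in MyLa and 0.06 in HH. All 9 tested metallothionein probe sets were positive, with a median of 0.48, which was 0.79 without either HH array and 0.11 without either MyLa array. MT1E by 212859_x_at (0.07) and MT1F by 213629_x_at (0.08), set to 5 on both MyLa arrays, were positive through HH alone. Of all measured probe sets 44.1% were positive in MyLa and 44.5% in HH, and the share across the lines was not counted.

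Between the lines the metallothioneins were lower in MyLa on both arrays. In limma, where each line was represented by its 2 arrays, 9 of 9 tested metallothionein probe sets were called lower in MyLa, as were 16.9% of all probe sets, while 18.2% were called higher. MT2A differed by -2.50 ± 0.43 (MyLa minus HH, SE, n = 2 arrays per line, adjusted p = 0.0159 in limma), which is 5.67-fold lower in MyLa, or 3.90-fold lower with IL-32γ and 8.23-fold lower without it. MT1G differed by -3.21 ± 0.37 (adjusted p = 0.00629), MT1X by -3.16 ± 0.33 by 208581_x_at (adjusted p = 0.00483), and MT1H by -2.70 ± 0.35 (adjusted p = 0.00801) in the same limma fit. Of these 9, MT1E by 212859_x_at and MT1F by 213629_x_at were below 5 on both MyLa arrays, so they entered the fit only through HH and had to differ. They were at least 188-fold and at least 144-fold lower in MyLa. Without them 7 of 7 were called lower. With no floor and no filter on low values 3 of 12 metallothionein probe sets were called, and MT2A, at the same difference, had an adjusted p of 0.130 in limma and MT1G one of 0.0737. The IL-32γ arrays lay closer together than the controls in the 7 probe sets measured in both lines. For MT2A the difference was -1.96 with IL-32γ and -3.04 without it, for MT1G -2.76 and -3.66, and for MT1H -2.29 and -3.12. In all 9 probe sets the MyLa array with IL-32γ still read below the HH control.

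Both arrays of a line differ by IL-32γ, so the spread in this fit contains that difference. Leaving out 1 array leaves the pair of the other line as the only spread of a probe set's own. The HH pair differed by 0.06 to 0.32 in the metallothionein probe sets, so calls without a MyLa array say little about stability. When either HH array was left out, which leaves 1 residual degree of freedom, 2 of the 9 metallothionein probe sets passed the threshold, and without either MyLa array 9 of 9 did. The ones that passed without an HH array were those of MT1E and MT1F set to 5 on both MyLa arrays. Their own spread was 0 by construction, and only spread drawn from other probe sets entered. Their calls therefore say nothing about stability. The difference of MT2A was -2.47 without the HH IL-32γ array (adjusted p = 0.189 in limma) and -2.53 without the HH control (adjusted p = 0.180 in limma). The 5' ACTB probe set was also lower in MyLa than in HH, by a difference of -1.77 with IL-32γ and -2.56 without it, while its 3' partner differed by -0.18 with IL-32γ and -0.13 without it. The 5' probe set of GAPDH differed less, by -0.13 with IL-32γ and -0.67 without it. The part of RNA quality in the metallothionein differences was not tested. Marker genes also differed between the lines. The summed linear level of the fibroblast markers in MyLa, taken from the deposited values, was 10998 with IL-32γ and 11718 without it. It came almost wholly from COL3A1 and COL1A1, while COL1A2, DCN and LUM were below 5 in both lines. In HH only COL1A1 with IL-32γ reached 5 (5.66), so no sum is given there. The summed linear level of the T cell markers was 25944 with IL-32γ and 24236 without it in MyLa. In HH it was 63802 with IL-32γ and 62433 without it. The part of either marker list was not tested.

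Among the regulators and exporters, MTF1 differed in the other direction. All 3 MTF1 probe sets were higher in MyLa, by 0.47 to 0.90, with adjusted p-values in limma from 0.00693 to 0.0459, and none reached 2-fold. SLC30A1 was higher in MyLa by 0.69 and 0.99 (adjusted p = 0.0118 and 0.0382 in limma). The share of all probe sets with an adjusted p under 0.05 at any fold was not counted. These p-values therefore do not set MTF1 or SLC30A1 apart from other genes. None of the 13 SLC30 probe sets was called at 2-fold, and their differences ran from -0.29 to 0.99.

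Of 19 SLC39 probe sets 5 were called lower in MyLa and 3 higher, beside 16.9% lower and 18.2% higher over all probe sets, so these counts lie near the general share. SLC39A8 was lower by 3 of 4 measured probe sets, at -2.01 ± 0.25 by 216504_s_at (adjusted p = 0.00763 in limma), -1.87 ± 0.48 by 228945_s_at (adjusted p = 0.0420) and -1.30 ± 0.21 by 219869_s_at (adjusted p = 0.0131). Its brightest probe set differed by -0.81 ± 0.10 (adjusted p = 0.00786), short of 2-fold. SLC39A4 read 9.02 with IL-32γ and 8.54 without it in MyLa, and 10.15 with IL-32γ and 10.37 without it in HH (-1.48 ± 0.22, adjusted p = 0.0113). SLC39A6 was lower by 1 of 4 probe sets, 202089_s_at, at 10.53 with IL-32γ and 10.33 without it in MyLa and at 11.52 with IL-32γ and 11.39 without it in HH (-1.03 ± 0.13, adjusted p = 0.00832 in limma). SLC39A8 lost its 3 calls whichever of the 4 arrays was left out, with adjusted p-values from 0.0527 to 0.270 in limma. SLC39A4 and SLC39A6 kept theirs only without the MyLa IL-32γ array, and their adjusted p-values otherwise ran from 0.0493 to 0.145, where SLC39A6 at 0.0493 fell short of 2-fold.

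The 3 called higher in MyLa were probe sets of SLC39A13, SLC39A7 and SLC39A9. SLC39A13 differed by 2.83 ± 0.49 by 1552295_a_at (adjusted p = 0.0161 in limma), with 0.94 by its other probe set. SLC39A7 read 10.38 with IL-32γ and 10.10 without it in MyLa, and 8.64 with IL-32γ and 8.84 without it in HH (1.51 ± 0.16, adjusted p = 0.00537). SLC39A9, a transporter of the Golgi and cell membrane, read 14.29 with IL-32γ and 14.27 without it in MyLa, and 13.34 with IL-32γ and 13.09 without it in HH (1.06 ± 0.14, adjusted p = 0.00790). SLC39A13 lost the call without the HH IL-32γ array (adjusted p = 0.195 in limma) or the HH control (adjusted p = 0.172). SLC39A7 kept it only without the MyLa control (adjusted p = 0.0442) and SLC39A9 only without the HH IL-32γ array (adjusted p = 0.0437), and their adjusted p-values otherwise ran from 0.0503 to 0.0924 in limma.

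**Figure D5:**
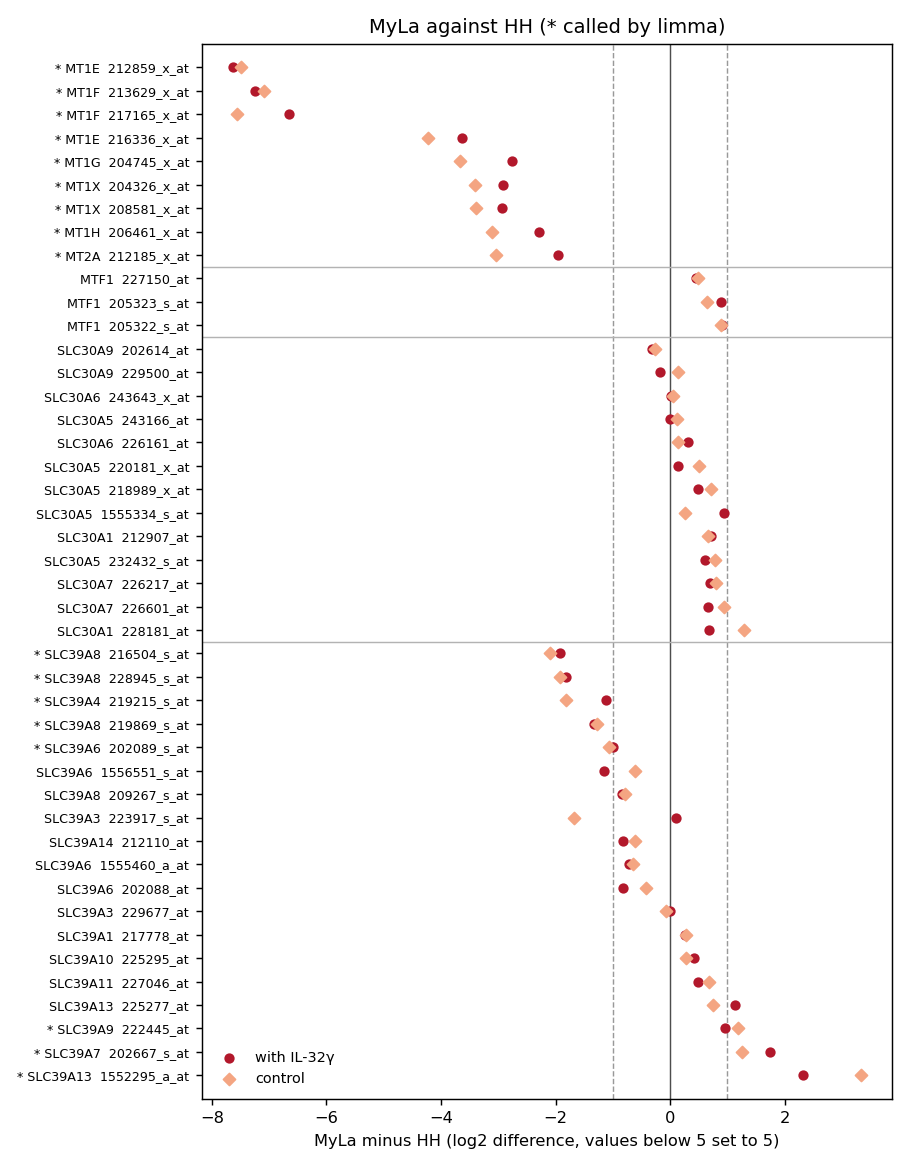
Log2 difference between MyLa and HH for the 44 member probe sets tested, in the IL-32γ arrays (circles) and in the controls (diamonds). Gene roles are separated by grey lines, dashed lines mark 2-fold and stars mark probe sets called by limma. All 9 metallothionein probe sets lie at -1.96 or below, while the 3 of MTF1 and all but 2 of the SLC30 exporters have a mean difference at or above 0.

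In the other lists of metal handling the genes past 1.5-fold are read beside the shares over all probe sets, 11.0% higher and 9.14% lower in MyLa and 5.43% higher and 4.02% lower in HH. Each listed gene is read by 1 probe set, that with the highest mean, while the shares cover every measured probe set. The metallothionein-like gene MT1HL1 read 9.59 with IL-32γ and 8.77 without it in MyLa (0.82), and 12.34 with IL-32γ and 12.28 without it in HH, through a probe set that also ends in _x_at. Of 13 copper handling genes measured in MyLa 0 were higher and 2 lower, the copper exporter ATP7B (-0.91) and the metal reductase STEAP3 (-0.78), with a median of -0.04. In HH 1 of 12 was higher, ceruloplasmin, CP (0.65), and 1 lower, the copper chaperone COX17 (-0.61). Of 10 iron handling genes none passed 1.5-fold in MyLa (median -0.16), and in HH 1 was lower, the iron importer SLC11A2 (-0.72).

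Lists of stress and hormone responses that are known to reach metallothionein genes are read beside the same shares, and the medians over all measured probe sets were -0.05 in MyLa and -0.03 in HH. Of 13 NRF2 and oxidative stress genes in MyLa 1 was higher, PGD of the pentose phosphate pathway (0.70), and 1 lower, SRXN1, which repairs peroxiredoxins (-0.66), with a median of -0.12. Of 11 heat shock genes 1 was higher, the heat shock factor HSF1 (0.78), with a median of -0.09. None of 9 measured glucocorticoid target genes passed 1.5-fold in MyLa (median -0.12) or in HH (median -0.01). Of the other zinc-handling genes 0 of 4 measured passed in MyLa, and in HH 1 of 6 was lower, the zinc finger gene ZNF658 (-1.11). In HH no NRF2 or heat shock gene passed, with medians of 0.03 and -0.03. Here too only the brightest probe set of each gene was counted, and its other probe sets could differ.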

How the data were processed

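Expression was measured on 4 arrays, 1 per cell line and condition. The deposited values are log2 expression per probe set, made by the authors with GCRMA (background correction by probe sequence, normalisation and summary), per the submitters' processing notes. Neither its version nor whether it ran on all 4 arrays at once is stated in the labels. The values lay between 2.13 and 16.0, from which the log2 scale was inferred. The number of arrays limits the precision.

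Probe sets were named through the array's annotation table, updated by Entrez identifier with RefSeq gene names, which matched 41043 of the probe sets with 1 symbol and left 54 unmatched. A further 1801 had several symbols and 11777 had none, and these were not named. Genes of the marker and pathway lists were read by their probe set with the highest mean. Values below 5 were set to 5. Differences within a line are IL-32γ minus control, counted at 1.5-fold or more, with no test. With R 4.3.3, limma 3.58.1 tested the probe sets at 5 or more on at least 2 arrays, control probe sets left out. For IL-32γ the line was a block, the pairing being given by the cell line of each array. MyLa was compared with HH without a covariate, and calls needed an adjusted p under 0.05 and at least 2-fold. Tests were two-sided with Benjamini-Hochberg adjustment over all probe sets tested, and the fits were tested on simulated data. Each SE and p-value is moderated, the spread of a probe set being drawn toward that of all probe sets tested.

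The genes and lists were chosen with earlier results of these data known. By the rule for named genes, values on every array are given for measured metallothionein probe sets, MTF1, SLC30A1, and members past 1.5-fold or called between the lines, and members of the other pathway lists are named only past 1.5-fold, at most 4 per list and line. Cell type markers are named as a check of the lines, and ZBTB16 for its bounded difference, outside this rule. Other members with values were picked with those values known. Python 3.11.15, pandas 2.3.3, numpy 2.4.6 and matplotlib 3.10.9 were used.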

Additional observations from a re-analysis of the deposited data

How the results depend on the processing

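The count of members higher with IL-32γ in MyLa, 10 probe sets, was 9 to 13 with floors of 4, 6 or none, with either rescaling and at 1.3-fold. It was 3 at 2-fold and 0 without probe sets ending in _s_at or _x_at, which removes every measured metallothionein. With 1 value per gene it was 7 with the brightest probe set and 5 with the average over each gene. Counts with 1 value per gene, here and below, are out of 23 genes and are not counts of probe sets. The 2 lower in MyLa became 1 at 2-fold, 1 with gene means and 0 with the brightest probe set per gene. In HH the count higher, 1, was 3 at 1.3-fold, 2 with no floor, and 0 at 2-fold, with either value per gene and without the shared probe sets. The 0 lower in HH became 2 with a floor of 4 or none and 1 at 1.3-fold. The brightest probe set turned the MyLa difference of SLC30A5 to -0.14, of SLC30A1 to 0.033 and of SLC39A8 to -0.038. No alternative fit of IL-32γ across lines called a member, among them the one with no replicate block (0 higher, 0 lower). Without any 1 array that fit has no residual degree of freedom and gives a value with no test, the metallothionein median lying between 0.11 and 0.79. Between lines, the 3 member probe sets higher in MyLa were 0 with no floor and no filter. The 14 lower were 7 genes with the brightest probe set and 8 genes with gene means. As probe sets, these 14 were 0 without shared probe sets and 3 with no floor and no filter. Of these, the metallothionein probe sets, 9 of 9, were 3 of 12 with no floor and no filter and 2 to 9 with an array left out. Leaving out each array gave 2 to 12 lower and 0 to 2 higher, the lone array of a line being assumed to vary like the other line. Treatment as a covariate, which pairs the lines by condition as a replicate block, gave 14 lower and 3 higher. Log2 values below 5 carry no order here, which limits MT1E, MT1F and SLC39A13.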
